A study of Mus musculus with 6 samples.

Results

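The genes described here are 9 claudins and occludin, the membrane proteins that form and accompany the strands of tight junctions. They were chosen by symbol, with earlier results of these data known. The set is Cldn1, Cldn2, Cldn3, Cldn4, Cldn5, Cldn6, Cldn7, Cldn12, Cldn14 and Ocln, 10 of the 22068 symbols listed for each library. Polyadenylated liver RNA was sequenced from mice of the C57BL/6 strain at an age of 6 weeks, with 3 libraries per group. The control group had the genotype Mst1-/-; Mst2fl/fl; alb-Cre-/-, and the group called dKO here (labelled Mst1/2 liver-dKO) had Mst1-/-; Mst2fl/fl; alb-Cre+/+. Both groups therefore lacked Mst1 and carried loxP-flanked Mst2, so the comparison addresses the loss of Mst2 on a background already null for Mst1. The groups also differ in the Cre transgene itself, which cannot be told apart from the loss of Mst2 in this design. Mst1 and Mst2 are kinases of the Hippo growth-control pathway. The albumin promoter drives Cre in hepatocytes and in cells that derive from albumin-expressing precursors, and the fraction of cells that had lost Mst2 was not measured.

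Tight junctions seal the space between neighbouring epithelial cells. In liver they close the bile canaliculus between hepatocytes and the lumen of the bile ducts, and so keep bile apart from blood. Claudins are tetraspan proteins whose extracellular loops set which ions and molecules pass between cells, and most bind the ZO scaffold proteins by their C-terminal ends. Some claudins tighten the barrier and others form channels. Occludin belongs to the separate MARVEL family and joins the strands without being needed to form them.

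Values are RPKM, read counts scaled to transcript length and sequencing depth, which allow levels of different genes to be compared per length. Group values are means with the SD over the 3 libraries, listed in the order of the replicate numbers. Changes are differences of log2(RPKM + 1), dKO minus control, with the standard error from limma, and this scale understates the change of genes below a few RPKM. A gene was called when its limma adjusted p, over the 11062 genes whose mean reached 1 RPKM, was under 0.05. Whether each replicate was a separate animal is not stated in the labels, so the p-values rest on the spread among libraries, and that spread may be technical.

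The RPKM of all genes summed to 364571 to 368246 in the control libraries and to 324034 to 352678 in the dKO libraries, and the depth was estimated as 16.9 to 24.8 M reads. The transcript of Mst2, listed as Stk3, was at 6.00, 5.42 and 5.20 RPKM in control and at 5.13, 4.25 and 5.32 RPKM in dKO, with overlap. The transcript of Mst1, listed as Stk4, was at 4.66 to 5.50 RPKM in control and 4.93 to 5.84 RPKM in dKO, although both groups are labelled null for it. A whole-gene value also reads exons outside a deletion, and which exons were removed was not given, so these values do not check the labels. The median gene was 0.23 log2 units higher in dKO, and 89.1% of all calls were increases. Median-ratio scaling moved that median by -0.24 and gave 873 higher and 614 lower calls, or 58.7% increases, and upper-quartile and quantile scaling gave 63.8% and 57.6%. The third dKO library stood apart from the others, with the lowest RPKM sum and the highest levels of several genes below, so ratios are also given without it where they move. In this bulk tissue, fewer cells of a type and less RNA per cell cannot be told apart.

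In the dKO livers the claudin and occludin transcripts were differently composed. Their sum in RPKM was 1.41 times that of control, a difference that shrank to 1.15 times, with overlap of the groups, under median-ratio scaling. Cldn3, Cldn6, Cldn7 and Ocln rose, from 1.89-fold for Ocln to 22.2-fold for Cldn6. Cldn1, Cldn2, Cldn5, Cldn12 and Cldn14 were not called in either direction, and Cldn4 was too low to be tested. Of the 9 tested genes, 4 were called higher, beside 17.8% of all tested genes, and 0 were called lower by limma, beside 2.17% of all tested genes. At an unadjusted p under 0.05 the number lower was also 0. For 6 of the 9 all dKO libraries lay above all control libraries, beside 38.3% of all tested genes, and for 0 they lay below, beside 6.73%. The median log2 difference was 0.32 over the 9 and 0.23 over all tested genes. Cldn6 and Cldn7 reached the minimum mean of 1 RPKM only through their dKO libraries, so these counts are a description of the set and carry no test.

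**Figure D1:**
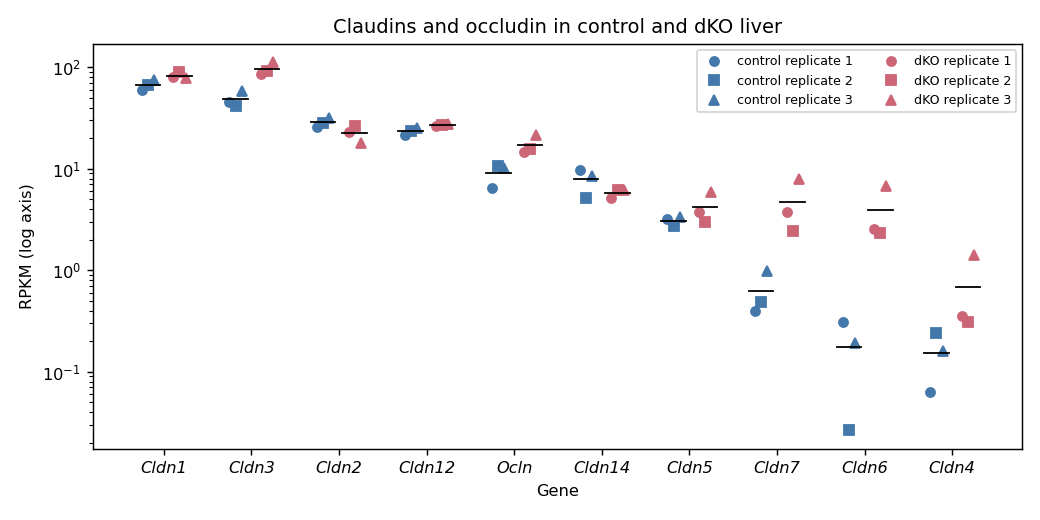
RPKM on a log axis for the 10 genes, ordered by their mean over the 6 libraries, with control libraries in blue, dKO libraries in red, 1 marker shape per replicate number and a black line at each group mean. Cldn3, Ocln, Cldn7, Cldn6 and Cldn4 show dKO libraries wholly above the control libraries, as do Cldn1 and Cldn12 by smaller margins, while Cldn2, Cldn14 and Cldn5 overlap.

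Promoter sequence is shown for the 4 genes that rose and for Cldn2, the most abundant member whose mean was lower in dKO so that the motif searched for below can be seen in place. The bases before the annotated start were taken from RefSeq on GRCm38.p6, with any bases in an annotated exon left out, and are written 5′ to 3′ on the strand of the gene. Capitals mark GGAATG, the core recognised by TEAD factors, through which the Hippo effectors YAP and TAZ bind DNA. The windows are chr5:134985964-134986213 on the plus strand for Cldn3, chr17:23679115-23679248 on the plus strand for Cldn6, chr11:69964529-69964778 on the plus strand for Cldn7, chr13:100552719-100552968 on the minus strand for Ocln and chrX:139800558-139800807 on the plus strand for Cldn2.
Cldn3: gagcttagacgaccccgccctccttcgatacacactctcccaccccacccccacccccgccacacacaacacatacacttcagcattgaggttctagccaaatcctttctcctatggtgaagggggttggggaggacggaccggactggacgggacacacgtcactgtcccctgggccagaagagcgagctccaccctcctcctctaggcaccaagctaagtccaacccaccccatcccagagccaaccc
Cldn6: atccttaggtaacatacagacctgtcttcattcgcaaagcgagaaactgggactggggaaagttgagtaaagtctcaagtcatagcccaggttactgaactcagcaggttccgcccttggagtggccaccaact
Cldn7: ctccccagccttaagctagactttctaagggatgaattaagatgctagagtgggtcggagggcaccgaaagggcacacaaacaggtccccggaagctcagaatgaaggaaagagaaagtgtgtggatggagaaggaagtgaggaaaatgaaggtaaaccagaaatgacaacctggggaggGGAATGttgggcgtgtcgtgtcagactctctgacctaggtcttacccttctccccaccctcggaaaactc
Ocln: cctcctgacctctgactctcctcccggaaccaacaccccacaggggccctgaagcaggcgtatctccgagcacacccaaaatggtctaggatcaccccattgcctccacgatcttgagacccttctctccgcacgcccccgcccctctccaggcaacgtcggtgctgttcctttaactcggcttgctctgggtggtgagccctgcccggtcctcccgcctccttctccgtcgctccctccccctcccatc
Cldn2: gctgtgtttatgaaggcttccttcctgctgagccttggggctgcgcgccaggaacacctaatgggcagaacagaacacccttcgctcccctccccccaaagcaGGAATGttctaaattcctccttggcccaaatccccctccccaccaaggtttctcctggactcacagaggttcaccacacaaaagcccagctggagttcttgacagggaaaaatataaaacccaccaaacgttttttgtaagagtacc

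All 10 genes matched the RefSeq promoter table, with 16 windows in all, and each was searched over its full 250 bases before the start on both strands. GGAATG or its reverse complement CATTCC lay in a window of 2 of the 10 genes, Cldn2 and Cldn7, beside 14.4% of the 27025 genes in that table. In Cldn2 the match spans bases 147 to 142 before the start, and in the first of the 2 Cldn7 windows it spans bases 70 to 65. The TCF/LEF core CTTTGAT or its reverse complement ATCAAAG was in 0 of the 10 genes, beside 3.72% of all genes. Of the genes with a match, Cldn7 rose and Cldn2 was not called, and 3 of the 4 genes that rose held neither motif in these windows. Sequence outside the windows was not searched, and whether the motifs have a part in these results was not tested.

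Cldn3, a barrier-forming claudin abundant in liver and other simple epithelia, rose to the highest level of the family. Its RPKM was 45.2, 41.5 and 57.7 in control and 85.9, 91.7 and 111 in dKO. The lowest dKO library lay above the highest control library. The mean went from 48.1 ± 8.48 to 96.4 ± 13.4 RPKM, a ratio of 2.00, and the log2 difference was 0.99 ± 0.17 (limma adjusted p = 0.00857). Without dKO replicate 3 the ratio was 1.84 and the call was kept (limma adjusted p = 0.0233). Cldn3 has 1 annotated transcript with 1 exon, and its RPKM stood for an estimated 963 to 3446 reads per library.

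Cldn1, a barrier claudin of hepatocyte and bile duct junctions, was the most abundant member in control liver. Its RPKM was 59.0, 66.1 and 74.6 in control and 79.5, 90.3 and 77.7 in dKO. The groups did not overlap, but the gap between the highest control and the lowest dKO library was small beside the spread within each group. The mean was 66.6 ± 7.79 RPKM in control and 82.5 ± 6.78 RPKM in dKO. The log2 difference of 0.31 ± 0.15 did not pass the test (limma adjusted p = 0.163), and its 95% interval ran from -0.03 to 0.65. With median-ratio scaling the difference was 0.03.

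The order of the 2 main barrier claudins differed between the groups. The ratio of Cldn3 to Cldn1 within a library, which a single scaling factor per library cannot alter, was 0.767, 0.627 and 0.774 in control and 1.08, 1.02 and 1.43 in dKO. Cldn1 was thus above Cldn3 in 3 of 3 control libraries and below it in 3 of 3 dKO libraries. The dKO ranges of the 2 genes overlapped, so across libraries their order in dKO is not separated by the spread. An exact permutation test of 3 against 3 libraries cannot give a two-sided p below 0.1, so the ratios given here are descriptions, chosen after the values were seen.

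Cldn12, an unusual claudin that lacks the C-terminal motif by which others bind ZO proteins, had the smallest difference of the tested members. Its RPKM was 21.6, 23.4 and 25.3 in control and 26.1, 27.0 and 27.4 in dKO. The groups did not overlap, by a narrow margin. The log2 difference was 0.19 ± 0.12 with a 95% interval of -0.08 to 0.46 (limma adjusted p = 0.262), below the median of all tested genes, and its sign turned to -0.08 with median-ratio and to -0.04 with upper-quartile scaling.

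Cldn2 forms channels for small cations and water and in liver is most abundant in hepatocytes near the central vein. Its RPKM was 25.7, 28.5 and 31.6 in control and 22.8, 26.4 and 17.8 in dKO. The second dKO library lay within the control range, so the groups overlapped. The mean was 28.6 ± 2.94 RPKM in control and 22.3 ± 4.35 RPKM in dKO. The log2 difference of -0.36 ± 0.16 did not pass the test (limma adjusted p = 0.146, 95% interval -0.73 to 0.02), but with weights estimated per library it did (-0.38, limma adjusted p = 0.0192). The difference was -0.63 with median-ratio scaling (limma adjusted p = 0.070), -0.59 with upper-quartile scaling (limma adjusted p = 0.0689) and -0.55 with quantile normalization (limma adjusted p = 0.0962). Without dKO replicate 3 it was -0.21 (limma adjusted p = 0.373).

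Relative to the other abundant claudins, Cldn2 was lower in every dKO library. Its ratio to Cldn12 was 1.19, 1.22 and 1.25 in control and 0.870, 0.978 and 0.648 in dKO, so Cldn2 was above Cldn12 in all control libraries and below it in all dKO libraries. Its ratio to Cldn3 was 0.569, 0.687 and 0.548 in control and 0.265, 0.288 and 0.159 in dKO. Both ratios separated the groups, although the Cldn2 level itself did not. Of 12 genes marking pericentral hepatocytes, 9 fell and 0 rose, where 2.17% of all tested genes fell and 17.8% rose. At an unadjusted p under 0.05 in limma 0 rose as well, and the median log2 difference was -1.15. Without control replicate 1 the number that fell was 5. Their summed RPKM was 2809 to 3507 in control and 633 to 1282 in dKO, and the lowest sum was in the third dKO library, as was the lowest Cldn2. The other libraries did not keep this order. Control replicate 1 had the highest sum of its group and the lowest Cldn2, and in dKO the sum was highest in replicate 1 and Cldn2 in replicate 2. The most abundant of the 12 pericentral genes were Cyp2e1, Cyp1a2, Glul and Gulo, with log2 differences of -1.84, -1.30, -1.89 and -1.32. Whether the pericentral genes have a part in the Cldn2 values was not tested.

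Cldn14 is a barrier claudin of kidney, inner ear and liver. Its RPKM was 9.74, 5.20 and 8.56 in control and 5.13, 6.11 and 6.16 in dKO. The second control library lay within the dKO range, and the other control libraries lay above all dKO libraries. The log2 difference was -0.34 ± 0.20, with a 95% interval of -0.81 to 0.12 (limma adjusted p = 0.245). Without control replicate 2 it was -0.58 and passed the test (limma adjusted p = 0.0308), and with weights estimated per library it was -0.55 and passed as well (limma adjusted p = 0.00944). Without control replicate 1 it was -0.18 (limma adjusted p = 0.569), and with median-ratio, upper-quartile and quantile scaling it was -0.59, -0.56 and -0.61 without passing (limma adjusted p = 0.118, 0.137 and 0.107).

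**Figure D2:**
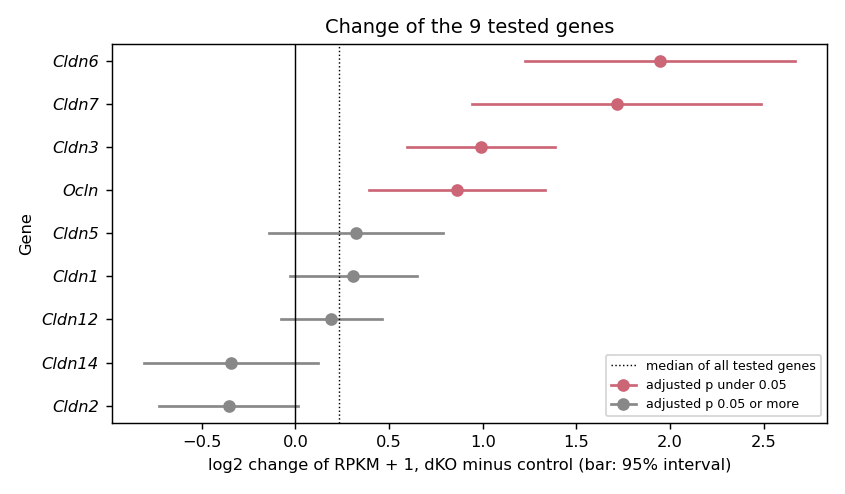
Log2 difference of RPKM + 1, dKO minus control, with its 95% interval for the 9 tested genes, called genes in red and others in grey, with a dotted line at the median of all tested genes (0.23). The intervals of Cldn6, Cldn7, Cldn3 and Ocln lie above 0, and those of the other 5 genes include 0.

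Cldn6, Cldn7 and Cldn4 were each under 1 RPKM in every control library and higher in every dKO library. Cldn6, a claudin of embryonic epithelia that is mostly silent in adult tissue, had the largest ratio of the family. Its RPKM was 0.306, 0.0264 and 0.190 in control and 2.52, 2.33 and 6.77 in dKO. All dKO libraries were several times above all control libraries, and the third dKO library stood well above the others. The mean went from 0.174 ± 0.141 to 3.88 ± 2.51 RPKM, and the log2 difference was 1.95 ± 0.31 (limma adjusted p = 0.00717). The ratio of the means was 22.2, with so low a base that leaving out control replicate 1 gave 35.8 and leaving out dKO replicate 3 gave 13.9, where the call was kept (limma adjusted p = 0.00449).

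Cldn7, a claudin of duct and tubule epithelia, rose in the same libraries. Its RPKM was 0.396, 0.485 and 0.989 in control and 3.72, 2.44 and 7.97 in dKO. The groups did not overlap, and the third library was the highest in each group. The mean went from 0.623 ± 0.320 to 4.71 ± 2.89 RPKM, a ratio of 7.56, and the log2 difference was 1.71 ± 0.33 (limma adjusted p = 0.0139). The ratio was 4.94 without dKO replicate 3, with the call kept (limma adjusted p = 0.0152), and without control replicate 1 the call was lost (limma adjusted p = 0.0609). Relative to Cldn3, Cldn7 was at 0.00875 to 0.0171 in control and at 0.0266 to 0.0715 in dKO, without overlap.

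Cldn4, a claudin of duct epithelia that restricts cation passage, had a mean of 0.422 RPKM and was not tested. Its RPKM was 0.0636, 0.241 and 0.158 in control and 0.353, 0.311 and 1.40 in dKO. No dKO library was as low as a control library, but by its 1 annotated transcript of 1816 bases these values stood for only an estimated 2.0, 10.9 and 5.9 reads in control and 13.8, 11.7 and 62.5 reads in dKO. The ratio of the means was 4.46 and dropped to 2.15 without dKO replicate 3. With no minimum on the mean, the log2 difference was 0.49 ± 0.28 (limma adjusted p = 0.434 over 22068 genes).

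Claudins of duct epithelia are also carried by cholangiocytes, the cells that line bile ducts, and markers of these cells moved with them. Of 14 listed markers, 9 reached the minimum mean and 9 were called higher, beside 17.8% of all tested genes, with a median log2 difference of 1.84. Epcam and Slc10a2, with control means of 0.359 and 0.587 RPKM, reached the minimum only through their dKO libraries, so this count carries no test. Of the 9, 7 were called with median-ratio, upper-quartile or quantile scaling, and 7 or 8 with any 1 library left out. The summed RPKM of the 14 markers was 35.8 to 93.0 in control and 372 to 1032 in dKO, with the highest sum of each group in the third library. Most of this sum was Spp1 alone, at 20.9, 18.7 and 64.7 RPKM in control and 454, 306 and 910 RPKM in dKO. Among the most abundant markers were Spp1, Sox9 and Krt23, with log2 differences of 4.04, 2.61 and 1.84. Ggt1, too low to be tested, was at 0 in all control libraries and at only 0.0678, 0.232 and 0.223 RPKM in dKO. Epcam, chosen after its values were seen, was at 0.112, 0.154 and 0.811 RPKM in control and 4.57, 3.73 and 12.0 RPKM in dKO, the same order of libraries within dKO as Cldn7. The third dKO library exceeded the mean of the other dKO libraries 2.79-fold for Cldn6, 2.59-fold for Cldn7 and 4.23-fold for Cldn4, beside 2.89-fold for Epcam, 2.32-fold for Sox9 and 1.26-fold for Cldn3. The markers varied in this: the excess was 2.40-fold for Spp1, 2.06-fold for Krt19 and 1.25-fold for Krt7. Slc10a2 was at 7.27, 11.5 and 8.03 RPKM in dKO. That library held the highest dKO value for 8 of the 10 members, 11 of the 14 cholangiocyte markers and 10 of 10 stellate cell markers, beside 61.8% of all tested genes. Slc10a2, Ggt1 and Muc1 were the cholangiocyte markers that were not highest there. The summed RPKM of the stellate markers was 58.2 to 71.7 in control and 97.9, 82.3 and 192 in dKO. The part of the cholangiocyte and stellate markers in these results was not tested.

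**Figure D3:**
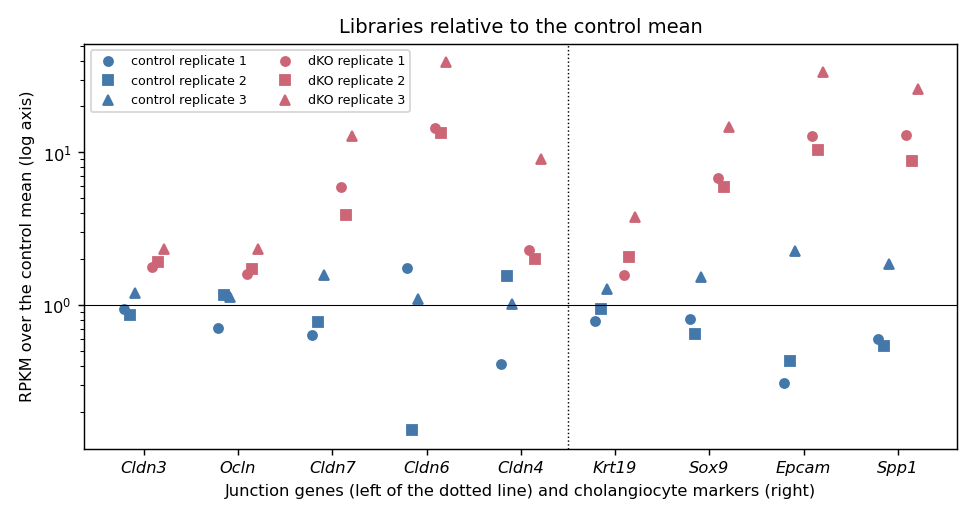
RPKM in each library divided by the control mean of the gene, on a log axis, for 5 junction genes left of the dotted line and 4 cholangiocyte markers right of it, with control libraries in blue, dKO libraries in red and 1 marker shape per replicate number. The third dKO library is the highest for all 9 genes, by 1.26-fold over the mean of the other dKO libraries for Cldn3 and by 2.89-fold for Epcam. The plotted genes are a selection. Cldn1 and Cldn2 among the members and Slc10a2, Ggt1 and Muc1 among the markers were not highest there and are not shown. Of all tested genes, 61.8% were highest in that library.

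Markers of tissues next to the liver were low where they define that tissue. Of 8 pancreatic exocrine genes, 6 were at 0 in all libraries and the summed RPKM was at most 0.764. Of 8 gut epithelial genes, Cdx1 and Cdx2 were at 0 in all libraries and Fabp2, which was at 32.5 to 45.6 RPKM in control, rose with a log2 difference of 0.71, a call lost with median-ratio and upper-quartile scaling, with the replicate block, and without any 1 of control replicates 1 and 3 and dKO replicates 1 and 2. Hepatocyte markers were the most abundant list, at 61541 to 78853 summed RPKM in control and 51249 to 58859 in dKO, and 3 of 12 fell and 0 rose. The number that fell was 1 with the replicate block, with quantile scaling and without any 1 of control replicates 1 and 3 and dKO replicates 1 and 3, and 8 with library weights. Of the 12, Alb was the most abundant, followed by Ahsg, Apoa2 and Ttr. Of 10 macrophage genes, led by Cd5l, Clec4f, C1qa and C1qb, 1 rose and 0 fell, but 6 were called higher without control replicate 2 and with library weights, and 1 was called lower with median-ratio, upper-quartile and quantile scaling. Of 10 stellate cell genes, led by Col3a1, Rgs5, Reln and Lrat, 2 rose and 0 fell, with 4 called higher under the replicate block, 3 without dKO replicate 2 and 1 with median-ratio, upper-quartile or quantile scaling or without control replicate 1 or 3. With library weights 4 stellate genes were called higher and 1 lower. Over all tested genes 17.8% rose and 2.17% fell, and the 1 of 10 macrophage and 2 of 10 stellate genes that rose were near that share. At an unadjusted p under 0.05 in limma, 6 hepatocyte genes were lower and 0 higher. At that limit 3 macrophage genes were higher and 1 lower, and 5 stellate genes were higher and 0 lower. Of all 11062 tested genes, 3647 were higher and 543 lower at that limit. Of 3 tested erythroid genes 0 were called in limma and 0 had an unadjusted p under 0.05, while 1 was called lower without control replicate 2.

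Cldn5, the main claudin of endothelial cells, was low and was not called. Its RPKM was 3.18, 2.70 and 3.30 in control and 3.74, 2.98 and 5.91 in dKO. The groups overlapped, and the third dKO library alone stood clear of the others. The log2 difference was 0.32 ± 0.21, with a 95% interval of -0.14 to 0.79 (limma adjusted p = 0.272), and the ratio of the means went from 1.38 to 1.10 without that library. With median-ratio and upper-quartile scaling the difference was 0.10 and 0.13. Of 12 endothelial genes 0 were called in limma (2 higher with library weights), 0 had an unadjusted p under 0.05, and their summed RPKM was 116 to 120 in control and 125 to 144 in dKO. The most abundant, Clec4g, Eng, Cdh5 and Kdr, had log2 differences of 0.23, 0.01, 0.25 and 0.11.

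Ocln encodes occludin, and it rose. Its RPKM was 6.45, 10.6 and 10.2 in control and 14.6, 15.7 and 21.4 in dKO. The groups did not overlap, and the first control library was the lowest by a wide margin. The mean went from 9.10 ± 2.30 to 17.2 ± 3.63 RPKM, a ratio of 1.89, and the log2 difference was 0.86 ± 0.21 (limma adjusted p = 0.0242). This call was the least firm of the 4. It was lost with median-ratio (0.60, limma adjusted p = 0.0595), upper-quartile (0.64, limma adjusted p = 0.0527) and quantile scaling (0.63, limma adjusted p = 0.0647). Leaving out control replicate 1 also ended the call (0.66, limma adjusted p = 0.0663), as did leaving out dKO replicate 3 (0.71, limma adjusted p = 0.0734).

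The make-up of the family was read from each gene's share of the summed RPKM of the 10 genes. The sum was 172, 179 and 213 RPKM in control and 244, 265 and 284 RPKM in dKO, without overlap. With median-ratio scaling, applied to the sum after the values were seen, it was 188 to 238 in control and 226 to 257 in dKO, and with upper-quartile scaling the groups overlapped too, at a ratio of 1.19. The shares do not depend on such scaling. Cldn3 held 25.6% ± 2.08 of the sum in control and 36.3% ± 2.56 in dKO. Cldn1 held 35.5% ± 1.36 and 31.3% ± 3.49. Cldn2 held 15.3% ± 0.590 and 8.51% ± 1.98, and Cldn12 held 12.5% ± 0.597 and 10.2% ± 0.516. The shares of Cldn3 were higher, and those of Cldn1, Cldn2 and Cldn12 lower, in every dKO library than in any control library. Ocln held 4.83% ± 1.09 and 6.47% ± 0.911, with overlap, and Cldn14 held 4.20% ± 1.39 and 2.19% ± 0.105, without overlap. Cldn7 and Cldn6 together with Cldn4 stayed minor components, at 1.75%, 1.43% and 0.252% of the sum in dKO. Cldn5 held 1.64% in control and 1.58% in dKO. Shares add up to a fixed total, so a larger share of 1 gene lowers the others.

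**Figure D4:**
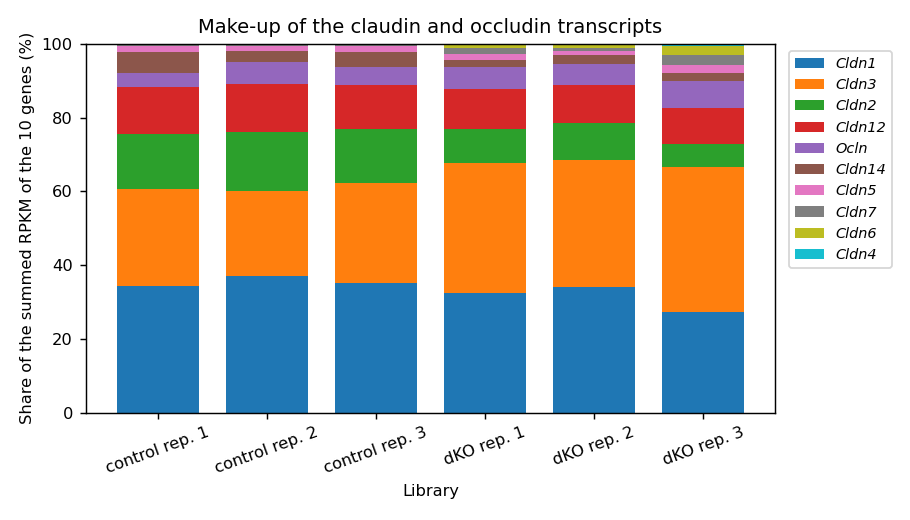
Stacked bars of each gene's share, in percent, of the summed RPKM of the 10 genes in each of the 6 libraries. Cldn3 widens from 25.6% to 36.3% in the group means, Cldn2 narrows from 15.3% to 8.51%, and Cldn6 and Cldn7 become visible in the dKO bars.

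By mean RPKM the control order was Cldn1, Cldn3, Cldn2, Cldn12, Ocln, Cldn14, Cldn5, Cldn7, Cldn6 and Cldn4. Ranges of neighbours overlapped there for Ocln and Cldn14 and for Cldn6 and Cldn4, so those pairs were not separated. The dKO order was Cldn3, Cldn1, Cldn12, Cldn2, Ocln, Cldn14, Cldn7, Cldn5, Cldn6 and Cldn4. In dKO the ranges overlapped for Cldn3 and Cldn1, for Cldn12 and Cldn2, for Cldn2 and Ocln, and for each neighbouring pair from Cldn14 to Cldn6. Only the gaps below Cldn1, Ocln and Cldn6 exceeded the spread in dKO.

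The other claudins added little to the family in either group. Of 18 further claudin genes listed, 14 were in the data, 5 of these were at 0 in all libraries, and none reached the minimum mean to be tested. Their summed RPKM was 0.895 to 1.28 in control and 1.97 to 3.84 in dKO. Cldn23, chosen after its values were seen, was at 0, 0.172 and 0.284 RPKM in control and 0.691, 0.760 and 2.06 RPKM in dKO. The groups did not overlap for Cldn23, and its highest value was again in the third dKO library.

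The partners of the claudins and occludin at the junction were mostly higher too. Of 21 genes for other membrane proteins and for scaffolds, 18 were tested, 12 rose and 0 fell, where 17.8% of all tested genes rose and 2.17% fell. Their median log2 difference was 0.58, beside 0.23 over all tested genes. Marveld3, 1 of the 12, reached the minimum mean only through dKO. Of 23 polarity and regulator genes, 19 were tested, 10 rose and 0 fell, with a median of 0.49. At an unadjusted p under 0.05 limma gave 1 lower gene over both lists, Ildr2, named after its values were seen (-0.59, limma adjusted p = 0.122). Of all 62 partner genes listed, 37 were tested and 22 were called higher, which became 13 with each of the median-ratio, upper-quartile and quantile scalings, 12 without control replicate 1 and 13 without control replicate 3. Calls higher over all tested genes went from 1965 to 873, 953 and 744 with those scalings, in that order. They numbered 755 without control replicate 1 and 947 without control replicate 3.

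Among membrane partners, F11r (JAM-A, an immunoglobulin-type adhesion molecule of the junction) changed most clearly. Its RPKM was 25.1, 30.8 and 28.6 in control and 65.2, 69.6 and 81.6 in dKO, without overlap, a ratio of 2.56 and a log2 difference of 1.32 ± 0.15 (limma adjusted p = 0.00136). Marveld2 (tricellulin, the MARVEL protein of three-cell contacts) rose with a log2 difference of 0.96 ± 0.18 (limma adjusted p = 0.0102). Marveld2 and Ocln are neighbouring genes on chromosome 13 in RefSeq. The ratio of Ocln to Marveld2 was 1.30 to 2.34 in control and 1.55 to 1.76 in dKO, and these ranges overlapped. Lsr (angulin-1, which recruits tricellulin) was at 49.6 ± 4.41 RPKM in control and 60.4 ± 4.19 in dKO and was not called (0.28 ± 0.14, limma adjusted p = 0.163), and its log2 difference was -0.0012 with median-ratio scaling.

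ZO proteins are scaffolds that bind claudins and occludin and tie them to actin. Tjp3, which encodes ZO-3, rose with a log2 difference of 0.92 ± 0.14 (limma adjusted p = 0.00519). Tjp1, which encodes ZO-1, was at 11.7, 11.5 and 12.1 RPKM in control and 15.8, 16.8 and 21.5 RPKM in dKO, without overlap, and rose (0.57 ± 0.14, limma adjusted p = 0.0248). The Tjp1 call was lost with median-ratio, upper-quartile and quantile scaling (limma adjusted p = 0.114, 0.0993 and 0.108) and without control replicate 1 or control replicate 3 (0.0741 and 0.0676). The ratio of Ocln to Tjp1 was 0.550, 0.922 and 0.847 in control and 0.925, 0.931 and 0.992 in dKO, a difference set mainly by the first control library. Cgn, the junction plaque protein cingulin, rose 2.44-fold (1.19 ± 0.17, limma adjusted p = 0.00364), and Mpdz, the multi-PDZ scaffold MUPP1, rose with a log2 difference of 0.76 ± 0.12 (limma adjusted p = 0.00582).

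Among polarity and regulator genes the calls with the smallest p were Myl12b, Llgl2, Crb3 and Inadl. Myl12b, a myosin regulatory light chain, rose with a log2 difference of 1.11 ± 0.14 (limma adjusted p = 0.00283). Llgl2, a basolateral polarity protein, rose by 1.03 ± 0.18 (limma adjusted p = 0.00832). Crb3 and Inadl (PATJ), both of the apical Crumbs complex, rose by 0.78 ± 0.15 and 0.96 ± 0.19 (limma adjusted p = 0.0101 and 0.0116). Pard3, the PAR polarity scaffold, chosen after its values were seen, was the only tested gene of the list whose dKO libraries all lay below the control libraries (-0.18, limma adjusted p = 0.258).

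**Figure D5:**
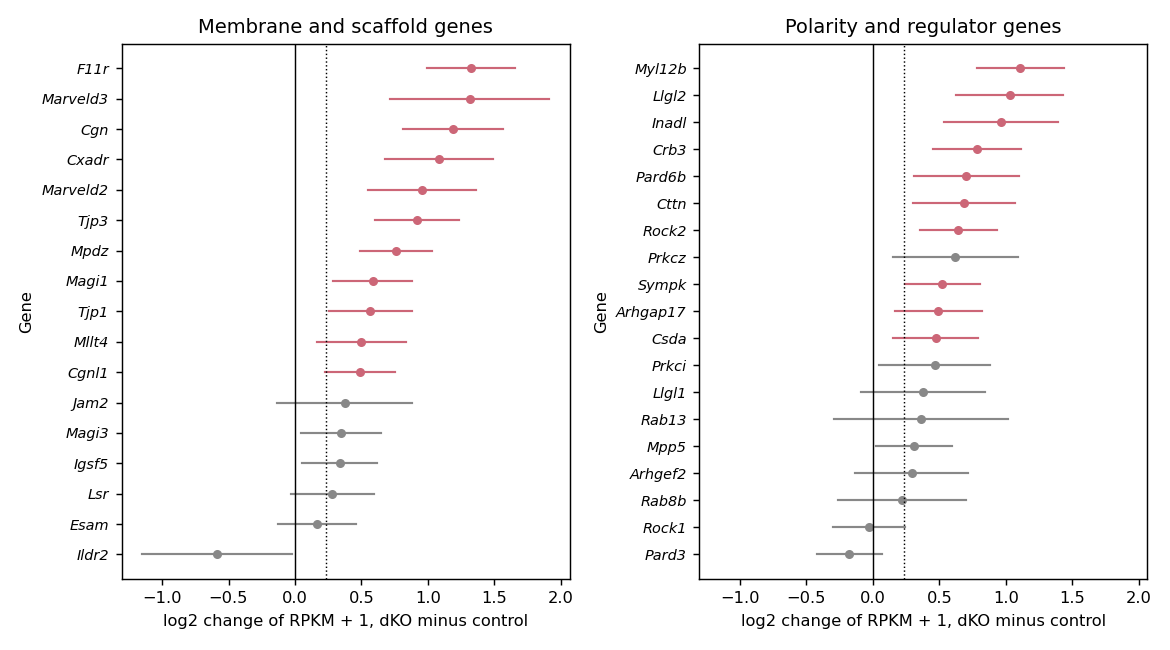
Log2 difference of RPKM + 1, dKO minus control, with its 95% interval for 17 tested membrane and scaffold genes and the 19 tested polarity and regulator genes, called genes in red and others in grey, with a dotted line at the median of all tested genes (0.23). Red points number 11 and 10 in the panels, and F11r has the smallest p of them.

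Genes whose profile over the 6 libraries was nearest to a member were sought among 6496 tested genes averaging 5 RPKM or more, by the root mean square distance of centred log2(RPKM + 1). Nearest to Cldn6 were Peg3 at 0.0826, Rps29 at 0.156 and Clu at 0.157. Peg3 was at 4.68 to 6.72 RPKM in control and 20.3 to 40.9 RPKM in dKO. Nearest to Cldn7 were Gpr56 at 0.151, Slc25a24 at 0.154 and Sparcl1 at 0.155, and nearest to Ocln were Myo1d at 0.0537, Gyg at 0.0669 and Ip6k2 at 0.0697.

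Neighbouring genes on the chromosome did not share 1 pattern with the members. By RefSeq order Cldn6 lies between Tnfrsf12a and Cldn9 on chromosome 17. Tnfrsf12a, a TNF receptor family member, was at 13.4, 9.99 and 10.6 RPKM in control and 48.2, 35.4 and 57.4 RPKM in dKO, and rose with a log2 difference of 1.94 ± 0.19 (limma adjusted p = 0.000928). Cldn9 was at 0 in all libraries, and because its coding sequence resembles that of Cldn6, how the counting treated reads shared by the pair is not known. Cldn3 and Cldn4 are neighbours on chromosome 5, and Abhd11, on the other side of Cldn3, was not called (0.22 ± 0.17, limma adjusted p = 0.352). Cldn16, beside Cldn1 on chromosome 16, was at 0 in all libraries.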

How the data were processed

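Liver RNA of 3 control and 3 dKO libraries was measured, and groups and replicate numbers were taken from the sample titles. The authors aligned, counted and normalized the reads, and the deposited values were read as RPKM. That unit was inferred: among 3973 symbols with 1 annotated transcript, 64.3% to 70% of 267 to 496 low values per library lay within 0.15 of a whole read at the best-fitting depth, where evenly spread values would give 30%, and fitting the depth raises this share by itself. The genome was mm9 per the submitters' processing notes. The aligner, the counter and the gene models are not given in the sources used here. Between 78 and 107 values per library were above 0 but under 0.0001 RPKM, which whole reads cannot give at this depth. By the labels' protocols the libraries did not mark strand, so antisense reads cannot be told apart.

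Genes were kept where their mean over the 6 libraries reached 1 RPKM. On log2(RPKM + 1), limma (3.58.1, R 4.3.3) fitted the group alone, with trend, robust moderation and Benjamini-Hochberg adjustment. The fit was tested on simulated data with the same relative spread for every gene and no library effects. These settings differ from the data, so the simulation does not check the calls made here. Tables and figures used Python 3.11.15, pandas 2.3.3, numpy 2.4.6 and matplotlib 3.10.9. The members and lists were chosen with earlier results of these data known, and the ratios and promoter motifs after the values were seen. Lists covered other claudins, junction membrane and scaffold genes, polarity and regulator genes, and markers of cholangiocytes, endothelium, hepatocytes, pericentral hepatocytes, macrophages, stellate cells, pancreas, gut epithelium and erythroid cells. Named genes were all members, up to 4 called genes per direction and junction list by smallest p, with Tjp1, Tjp3, F11r, Cgn, Marveld2 and Lsr, the 4 most abundant genes of each marker list, and the 3 nearest profiles of Cldn6, Cldn7 and Ocln. Some genes that this rule takes in are not reported here, although the list counts include them. Afdn, Ybx3, Pals1 and Patj are listed as Mllt4, Csda, Mpp5 and Inadl. Starts of 13 of the 16 promoter windows were found in a GENCODE M21 transcript of the gene. Alternatives were a pseudocount of 0.1, no minimum, a minimum of 1 RPKM in any 3 libraries, a replicate block, plain moderation, 4 scalings, library weights, each library left out and an adjusted p under 0.01.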

Additional observations from a re-analysis of the deposited data

How the results depend on the processing

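Of the members' log2 differences, 136 comparisons with an alternative kept direction and side of the threshold, 12 lost the call, 3 gained one and 2 changed sign, and for the named partners these were 183, 20, 0 and 1. The changes of sign were Cldn12 with median-ratio (-0.085) and upper-quartile scaling (-0.044) and Lsr with median-ratio scaling (-0.0012). Members called higher numbered 0 without the minimum on the mean, where 25 of 22068 genes were called, 2 at an adjusted p under 0.01, and 2 to 4 with 1 library left out, lowest without control replicate 1. Members called lower numbered 2 with library weights and 0 to 1 with 1 library left out, the call being Cldn14 without control replicate 2. Partners called higher numbered 0 without the minimum, 13 with each of median-ratio, upper-quartile and quantile scaling, 8 at an adjusted p under 0.01, and 12 to 22 with 1 library left out. Partners called lower numbered 1 with each of those scalings and with library weights (Pard3), 1 with the replicate block (Ildr2), and 0 to 1 with 1 library left out. Deviations of same-numbered libraries correlated at -0.0806, -0.101 and -0.00985. With 3 libraries per group such values cannot show whether the numbers pair the libraries, and the labels do not state it. With the replicate block 4 members were called higher and 0 lower, and calls over all genes went from 1965 higher and 240 lower to 1513 and 202. Library weights gave 4133 and 601. Depth limits Cldn4, at an estimated 2.0 to 62.5 reads, and the control values of Cldn6 and Cldn7.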
